A study of Mus musculus with 9 samples.

Results

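The genes described here are 7 genes expressed across the haematopoietic lineage, Ptprc, Ptpn6, Coro1a, Laptm5, Lcp1, Cyba and Arhgdib, chosen by name as a measure of leukocyte content. All 7 had an entry among the 13588 of the table. RNA was sequenced from laser-captured mediobasal hypothalamus of 9 male mice of the floxed Snord116 line B6(Cg)-Snord116tm1Uta/J, labelled as strain C57/BL6, with a library for each mouse. Every mouse, controls included, carried the floxed allele, which the study describes as homozygous, and underwent stereotaxic surgery as an adult. AAV-GFP was injected in 3 control mice and AAV-Cre in 6, and brains were frozen 10 weeks later. The vectors were driven by the ubiquitous CAG (Cre) and CMV (GFP) promoters, and the study gives a higher titre for AAV-Cre than for AAV-GFP. Cre, promoter and titre cannot be told apart in comparisons with AAV-GFP mice. The captured region of AAV-Cre mice was chosen by Cre staining of adjacent sections, and the study matched the region of AAV-GFP mice to it.

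By weight, the AAV-Cre mice fall into 2 subsets of 3. Their sample titles disagree with their weight labels. The word obese stands in the titles of 3 mice whose label reads nonobese, and is absent from the titles of the 3 labelled obese. AAV-Cre obese and AAV-Cre nonobese below follow the label, and every direction given for these subsets rests on it.

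Ptprc (CD45) is a receptor-type tyrosine phosphatase of the leukocyte surface, and Ptpn6 (SHP-1) is a cytosolic tyrosine phosphatase that dampens signalling from immune receptors. Coro1a and Lcp1 (L-plastin) bind filamentous actin, and Arhgdib is a GDP dissociation inhibitor of small GTPases. Laptm5 is a lysosomal membrane protein that limits antigen receptor levels, and Cyba (p22phox) is a membrane subunit of the NADPH oxidase. In brain tissue these transcripts are known from resident microglia and from leukocytes that enter from the blood, and Coro1a is known from neurons as well. In captured tissue more leukocytes and more RNA per leukocyte cannot be told apart.

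Reads on the listed entries numbered 3929672 to 5766994 per library (median 4611358). Values are reads divided by a scaled library size, here called signal. A floor of 3 reads corresponds to a signal of 0.525 to 0.786 and covers counting error only. Cre had 1011 to 37704 reads in the AAV-Cre libraries and 0 to 5 in the AAV-GFP libraries, and Gfp had 317 to 350 reads in AAV-GFP libraries and 0 in the others. Snord116 itself was not analysed here. AAV-Cre obese replicates 1 and 3 stood apart from the other 7 libraries in most of the genes described here. Log2 fold changes of genes reported as called in AAV-Cre obese against AAV-GFP mice are given with and without them. So are the medians of the 7 genes in comparisons of the AAV-Cre obese subset with another group.

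The promoters of Ptpn6 and Lcp1, the members with an FDR under 0.1 in AAV-Cre obese mice, and of Coro1a, whose signal did not follow the others, are shown to set genes with and without a called difference side by side. The sequences are the bases before the annotated start that lie outside any annotated exon (RefSeq, GRCm38.p6), read 5′ to 3′ on the strand of the gene. Capitals mark GGAA, the core recognized by ETS factors such as PU.1, or its reverse complement TTCC.
Ptpn6, chr6:124738715-124738959, minus strand: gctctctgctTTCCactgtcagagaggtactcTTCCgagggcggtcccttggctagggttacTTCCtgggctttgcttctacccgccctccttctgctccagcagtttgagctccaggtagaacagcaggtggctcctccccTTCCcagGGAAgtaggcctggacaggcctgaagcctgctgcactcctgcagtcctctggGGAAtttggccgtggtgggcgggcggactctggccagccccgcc
Lcp1, chr14:75130882-75131100, plus strand: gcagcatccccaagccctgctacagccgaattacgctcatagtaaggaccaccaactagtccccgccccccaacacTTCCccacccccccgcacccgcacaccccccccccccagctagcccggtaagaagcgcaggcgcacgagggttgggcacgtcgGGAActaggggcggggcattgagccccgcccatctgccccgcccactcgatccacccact
Coro1a, chr7:126704817-126705066, minus strand: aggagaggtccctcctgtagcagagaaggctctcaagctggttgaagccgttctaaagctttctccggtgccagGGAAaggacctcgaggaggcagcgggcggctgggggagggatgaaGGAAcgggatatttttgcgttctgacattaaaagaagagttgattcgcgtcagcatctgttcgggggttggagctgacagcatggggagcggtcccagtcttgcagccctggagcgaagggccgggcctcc

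The core occurred 6 times in the printed bases of Ptpn6 and 2 times in each of those of Lcp1 and Coro1a. Lcp1 and Coro1a each have a further annotated promoter, not printed, with 0 cores in 95 bases outside exons for Lcp1 and 4 in 207 for Coro1a, so the count depends on the promoter taken. The Coro1a window lies within the longer gene model of the GENCODE M21 annotation. In windows of 250 bases before to 50 after the start, on both strands, GGAA was present in 12 of the 12 promoters annotated for the 7 genes. It was present in 96.0% of all 32851 promoters of the same length, so its presence does not set these genes apart. The longer GAGGAA, which contains the core, was found in 3 of the 12 promoters and 28.3% of all, at Ptprc, Laptm5 and Arhgdib. The RUNX-type TGTGGT was found in 1 of 12 against 16.8%, the TATA-type TATAAA in 3 of 12 against 13.6%, and the GC box GGGCGG in 6 of 12 against 35.7%. These are matches of letters and not sites of binding.

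In AAV-GFP mice the 7 genes were expressed at low to moderate levels. Per kilobase of exon, Coro1a had the highest signal at 10.3 ± 2.47 (SD, n = 3 mice), which lay at percentile 73.3 of the entries. Laptm5 followed at 2.97 ± 0.157, then Arhgdib at 2.48 ± 0.895, Lcp1 at 1.62 ± 0.572, Cyba at 1.36 ± 1.24 and Ptpn6 at 0.824 ± 0.0693 (each SD, n = 3). Ptprc was lowest at 0.188 ± 0.0288 (SD, n = 3), at percentile 1.47. Coro1a and Ptprc were separated from their neighbours by more than the summed SDs, and from Laptm5 to Ptpn6 neighbours differed by less than their summed SDs. Exon lengths are those of all annotated transcripts merged, and the 18313 bases of Ptprc lower its value per kilobase.

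The first comparison asked how gene expression in the Cre-expressing region of the obese mice differed from that in control mice. Ptpn6 and Lcp1 were higher in AAV-Cre obese mice, and the signal of all genes but Coro1a was higher in replicates 1 and 3 than in every other library. Replicate 2 was above every control mouse for Ptpn6, Lcp1 and Cyba, at 3.05, 1.78 and 2.72 times the control mean, within the control range for Ptprc and Coro1a, and below it for Laptm5 and Arhgdib. Of the 7 genes, 2 had an FDR under 0.1 and were higher (limma), against 0.422% of the 13506 entries tested. At an unadjusted p under 0.05 in limma 5 were higher, against 5.11% of entries, and 3 of 7 (Ptpn6, Lcp1 and Cyba) had groups that did not overlap, against 7.18%. The median log2 fold change (log2 FC) of the 7 was 2.01, beside −0.04 over all entries. All 7 passed the filter on low values, also without the AAV-Cre obese libraries.

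Ptprc (ENSMUSG00000026395; GRCm38 chr1:138062861-138175708) had a signal of 2.99, 4.02 and 3.30 in the 3 AAV-GFP mice and of 58.0, 3.63 and 58.8 in AAV-Cre obese mice. AAV-Cre obese replicates 1 and 3 were more than 10 times above every control mouse, and replicate 2 lay between the control mice. The log2 FC was 2.52 (standard error, SE, 0.833 and FDR = 0.251), and the 2-sided exact permutation test gave p = 0.2, where 0.1 is the smallest p that 3 mice against 3 allow.

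Ptpn6 (ENSMUSG00000004266; GRCm38 chr6:124720707-124738714) had the highest ratio of means of the 7 genes. Its signal was 2.49, 2.11 and 2.33 in AAV-GFP mice, and 141, 7.04 and 90.8 in AAV-Cre obese mice. All 3 AAV-Cre obese mice were above all control mice, and the mean was 34.4 times that of control mice. The log2 FC was 3.83 (SE 0.806, FDR = 0.0332, exact permutation p = 0.1). A single antisense gene, Gm20531, overlaps its exons in the annotation and was not analysed here.

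Of the actin-binding genes, Lcp1 was called and Coro1a was not. Lcp1 (ENSMUSG00000021998; GRCm38 chr14:75131101-75230842) had a signal of 11.7, 21.6 and 12.8 in AAV-GFP mice and of 95.4, 27.5 and 93.2 in AAV-Cre obese mice. The groups did not overlap, and the log2 FC was 2.01 (SE 0.454, FDR = 0.0559, exact permutation p = 0.1). The antisense genes Gm15628 and Gm15629, which overlap its exons, were not analysed here. Coro1a (ENSMUSG00000030707; GRCm38 chr7:126699773-126707787) had a signal of 34.9, 30.1 and 21.4 in AAV-GFP mice and of 18.7, 25.4 and 24.9 in AAV-Cre obese mice. AAV-Cre obese replicate 1, the highest of all libraries for Ptpn6 and Lcp1, was below every control mouse for Coro1a. Its log2 FC was −0.30 (SE 0.464, FDR = 0.879). Exons of Coro1a and of Bola2 overlap on opposite strands, and the strand setting of the counting is not given in the sources used here. Bola2 had a signal of 7.48 to 21.6 in AAV-GFP mice and of 18.2 to 32.7 in AAV-Cre obese mice.

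Laptm5 (ENSMUSG00000028581; GRCm38 chr4:130913125-130936141) was uniform in AAV-GFP mice, with a signal of 11.2, 11.9 and 10.7. It was 85.5, 9.08 and 78.8 in AAV-Cre obese mice, so replicate 2 lay below every control mouse. The log2 FC was 1.75 (SE 0.653, FDR = 0.343), and it ranged from 1.21 to 2.76 when a mouse was left out.

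Cyba (ENSMUSG00000006519; GRCm38 chr8:122424776-122432930) had 0, 9 and 13 reads in AAV-GFP mice and 139, 17 and 92 reads in AAV-Cre obese mice. The corresponding signal was 0, 1.72 and 2.52 against 31.3, 3.86 and 21.4. The groups did not overlap, and the log2 FC of 2.84 (SE 0.887) had an FDR of 0.223. Arhgdib (ENSMUSG00000030220; GRCm38 chr6:136923655-136941899) had a signal of 5.73, 2.68 and 4.27 in AAV-GFP mice and of 37.6, 0.227 and 27.2 in AAV-Cre obese mice. The 0.227 of replicate 2 was 1 read, and the log2 FC was 1.12 (SE 1.03, FDR = 0.771). It was 2.70 (FDR = 0.0693) without that mouse, 0.21 at the lowest when another was left out, and 2.35 to 2.38 by the edgeR tests and DESeq2, which did not call it. Its exons overlap those of Pde6h on the other strand, which had a signal of 3.83 to 10.5 in AAV-GFP mice and of 1.80 to 3.95 in AAV-Cre obese mice.

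**Figure D1:**
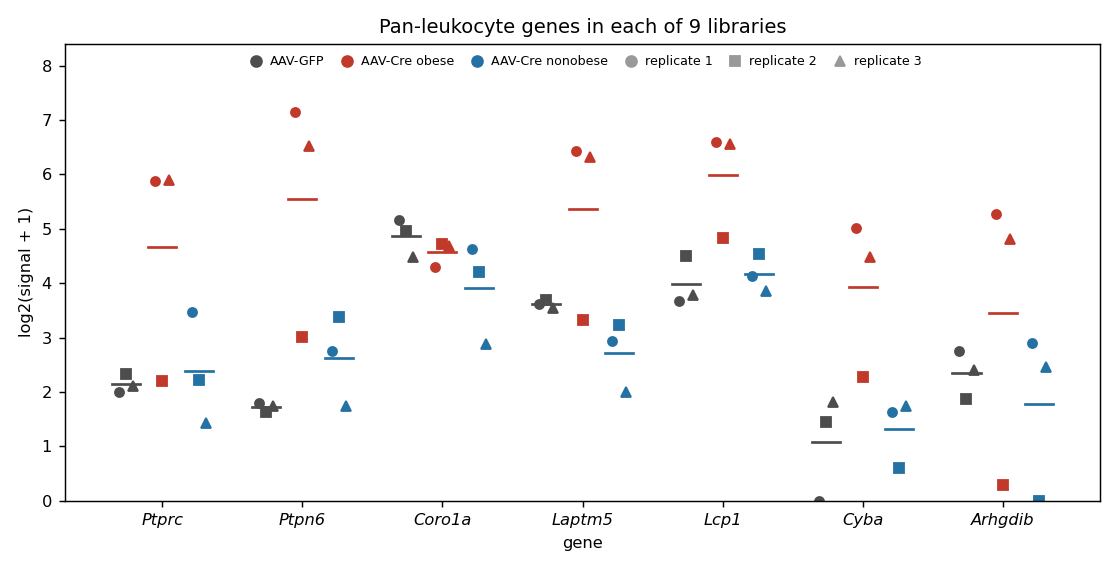
Level of each of the 7 genes as log2(signal + 1) in the 9 libraries, with a point for each mouse, its shape for the replicate number, and a line for the mean of each group of 3. AAV-Cre obese replicates 1 and 3 lie above all other libraries for every gene but Coro1a.

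Summed over the 7 genes, signal was 69.1, 74.1 and 57.3 in AAV-GFP mice, 467, 76.7 and 395 in AAV-Cre obese mice, and 71.2, 61.8 and 33.7 in AAV-Cre nonobese mice. Coro1a supplied 37.3% to 50.5% of that sum in AAV-GFP mice, 33.1% in AAV-Cre obese replicate 2, and 4.0% and 6.29% in AAV-Cre obese replicates 1 and 3. Per kilobase the order of the means in AAV-Cre obese mice was Ptpn6 (28.4), Cyba (18.1), Laptm5 (15.3), Arhgdib (12.7), Coro1a (8.26), Lcp1 (7.58) and Ptprc (2.19). The SDs of these means reached 24.1 with n = 3, and neighbours in that order differed by less than their summed SDs. These SDs are between mice, while the genes were measured in the same mice. Within each of the 3 mice, Laptm5 was above Arhgdib and Lcp1 above Ptprc, and the other neighbours changed order between mice. Over the 9 libraries, Pearson's r between the log2 signal of a gene and the mean of the other 6 was 0.975 for Ptprc, 0.940 for Laptm5, 0.925 for Lcp1, 0.916 for Ptpn6, 0.875 for Cyba and 0.723 for Arhgdib. It was 0.0989 for Coro1a. These coefficients describe 9 libraries of which a pair lies far from the rest, and they carry no test.

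The count of calls depended on single libraries. Without AAV-GFP replicate 1, AAV-GFP replicate 3, AAV-Cre obese replicate 1 or AAV-Cre obese replicate 3 it was 0 of 7, and without AAV-Cre obese replicate 2 it was 6 of 7. With AAV-Cre obese replicates 1 and 3 both left out, a setting added after the values were seen, the median log2 FC was 0.07. The log2 FC was then 1.28 for Ptpn6 and 0.84 for Lcp1. The edgeR likelihood ratio test and DESeq2 on the recovered reads each called 5, and limma without the variance trend called 0.

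AAV-Cre obese replicates 1 and 3 also had the fewest Cre reads of the AAV-Cre mice, with 5912 and 1011, against 37704 in AAV-Cre obese replicate 2 and 19611 to 33105 in AAV-Cre nonobese mice. The part of Cre level in the result was not tested.

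**Figure D2:**
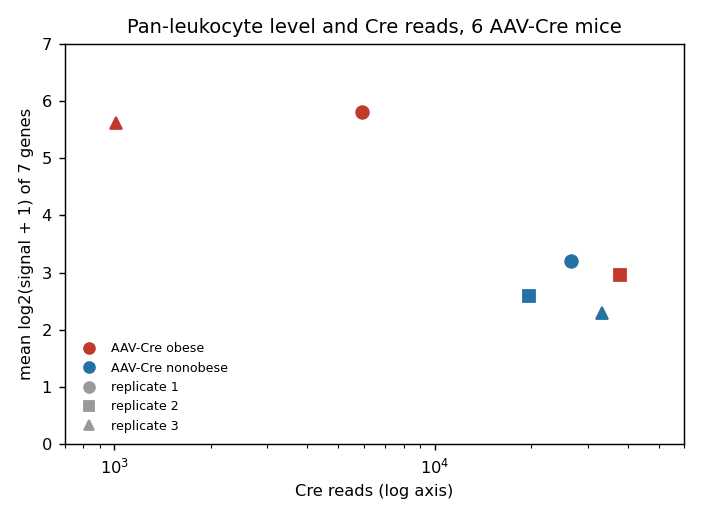
Mean log2(signal + 1) of the 7 genes against the number of Cre reads (log axis) in the 6 AAV-Cre mice, with a point for each mouse, its colour for the weight label and its shape for the replicate number. AAV-Cre obese replicates 1 and 3, with 5912 and 1011 Cre reads, have means of 5.81 and 5.61, and the other 4 mice lie between 2.30 and 3.21.

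AAV-Cre nonobese mice were compared with the same AAV-GFP mice, so that the comparison shares its controls with the one above. Of the 7 genes, 0 had an FDR under 0.1 (limma), against 0.0148% of entries in either direction. The count was also 0 by both edgeR tests and by DESeq2. At an unadjusted p under 0.05 in limma 1 gene, Coro1a, was counted, against 2.27% of entries, with a signal of 23.6, 17.5 and 6.40 and a log2 FC of −0.96 (SE 0.464, FDR = 0.999). Groups did not overlap for 1 of 7 genes, Laptm5, which was lower, against 5.15% of entries. Its signal was 6.65, 8.38 and 2.99, with a log2 FC of −0.89 (SE 0.653, FDR = 0.999). Ptprc had a signal of 10.1, 3.67 and 1.71, Ptpn6 of 5.77, 9.43 and 2.35, and Lcp1 of 16.4, 22.3 and 13.4. Cyba was at 2.10, 0.524 and 2.35, and Arhgdib at 6.47, 0 and 4.48. All but Laptm5 overlapped the control range, and the median log2 FC of the 7 was 0.19, beside −0.02 over all entries.

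The AAV-Cre subsets were then compared with each other. Laptm5 and Lcp1 were lower in AAV-Cre nonobese than in AAV-Cre obese mice, which makes 2 of 7 genes with an FDR under 0.1 and lower, against 0.733% of entries. The log2 FC was −2.64 (SE 0.653, FDR = 0.0692) for Laptm5 and −1.82 (SE 0.454, FDR = 0.0721) for Lcp1, and exact permutation p was 0.1 for both. For Laptm5, AAV-Cre obese replicate 2, at 9.08, was just above the highest nonobese mouse at 8.38. Groups did not overlap for 3 of 7 genes (Laptm5, Lcp1 and Cyba), against 6.65% of entries. Ptpn6 had a log2 FC of −2.93 (SE 0.806, FDR = 0.111), with 9.43 in a nonobese mouse above the 7.04 of AAV-Cre obese replicate 2. The median of the 7 was −2.29, beside 0.02 over all entries. The count was 1 of 7 without AAV-GFP replicate 1, and 0 without AAV-Cre obese replicate 1, AAV-Cre obese replicate 3 or any of the AAV-Cre nonobese mice. It was 6 without AAV-Cre obese replicate 2, and 0 without AAV-Cre obese replicates 1 and 3 together, where the median was −0.61.

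**Figure D3:**
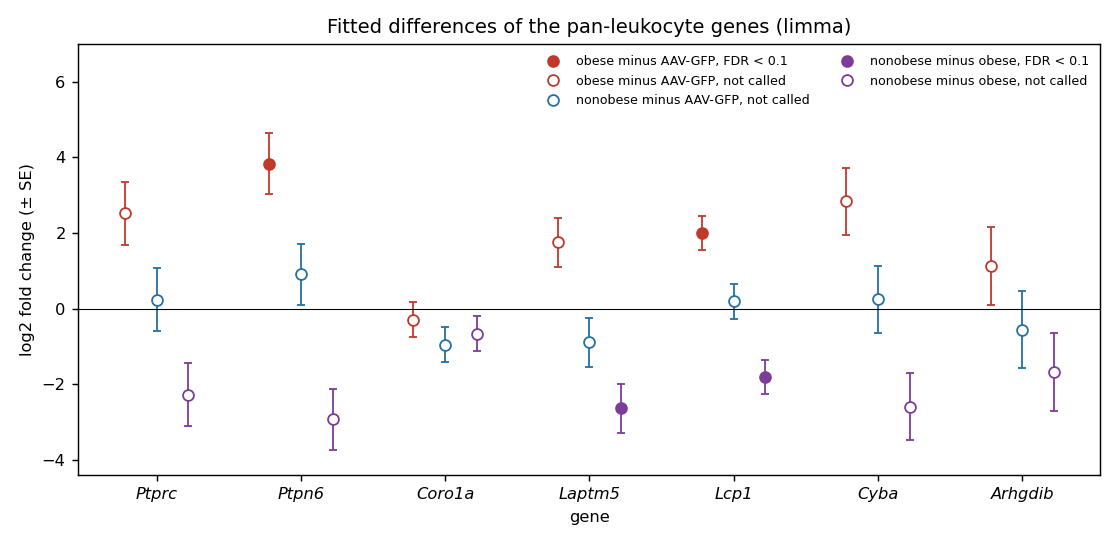
Log2 fold change ± standard error of each of the 7 genes from limma for AAV-Cre obese minus AAV-GFP, AAV-Cre nonobese minus AAV-GFP and AAV-Cre nonobese minus AAV-Cre obese, filled where the FDR is under 0.1. Ptpn6 (3.83) and Lcp1 (2.01) are filled in the comparison of obese with AAV-GFP mice, and Laptm5 (−2.64) and Lcp1 (−1.82) in that of nonobese with obese mice.

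When all 6 AAV-Cre mice were set against the 3 AAV-GFP mice, 0 of 7 genes had an FDR under 0.1 (limma), against 0.0222% of entries. The edgeR tests and DESeq2 gave 0 as well. At an unadjusted p under 0.05 in limma the count was 2, Ptpn6 and Lcp1, against 3.14% of entries. Ptpn6 ranged from 2.35 through a median of 8.23 to 141 in AAV-Cre mice, with 5 of 6 above all control mice, a log2 FC of 2.37 (SE 0.883, FDR = 0.999) and an exact permutation p of 0.107. Lcp1 ranged from 13.4 through 24.9 to 95.4, with 4 of 6 above all control mice and a log2 FC of 1.10 (SE 0.515, FDR = 0.999). The median of the 7 was 1.10.

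The broadly expressed relatives of these genes, which share their protein families but are found in most cell types, were examined in the same fit. Of 13 relatives, 0 were called in AAV-Cre obese mice by limma, 0 had an unadjusted p under 0.05, and the median log2 FC was −0.02. Their summed signal was 977 to 1006 in AAV-GFP mice, 987 to 1045 in AAV-Cre obese mice and 989 to 1071 in AAV-Cre nonobese mice. The log2 FC of Ptpra, a receptor-type phosphatase, was 0.02, that of Ptpre, another, 0.51, and that of Ptpn11 (SHP-2), the relative of Ptpn6, 0.11. Among coronins it was 0.21 for Coro1b, −0.17 for Coro1c, −0.17 for Coro2b and −0.08 for Coro7. It was 0.23 for Laptm4a and −0.50 for Laptm4b, 0.16 and −1.55 for the plastins Pls3 and Pls1, and −0.02 and −0.50 for the GDP dissociation inhibitors Arhgdia and Arhgdig. The lowest FDR of the 13 was 0.554 (Pls1).

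Among signalling and oxidase partners, 0 of 13 with an entry passed the test (limma). The filter on low values was passed by 12 also without the AAV-Cre obese libraries. Of these, 3 were higher at an unadjusted p under 0.05, against 5.11% of all entries tested, and the median log2 FC was 0.62. Cybb, the catalytic subunit that pairs with Cyba, had a signal of 2.24, 0 and 0 in AAV-GFP mice, 117, 0 and 167 in AAV-Cre obese mice, and 1.22, 1.83 and 0 in AAV-Cre nonobese mice. It was high in the same pair of mice as Cyba, with a log2 FC of 4.19 (SE 1.28, FDR = 0.208). The cytosolic oxidase subunit Ncf1 had a log2 FC of 0.61. The kinases Syk and Lyn, found in blood cells, had log2 FCs of 2.05 (FDR = 0.251) and 1.83 (FDR = 0.403), and the widely expressed Fyn and Csk −0.20 and 0.41.

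Of 26 other leukocyte-wide genes with an entry, 1 passed the test in AAV-Cre obese mice against AAV-GFP mice and was higher. The share of all entries tested was 0.422%. The filter was passed by 21 also without the AAV-Cre obese libraries. Of these, 13 were higher at an unadjusted p under 0.05 in limma, against 5.11% of all entries tested. All 21 had a log2 FC above 0, with a median of 1.997. The other 5 (Cd48, Cd37, Sla, Cytip and Ptpn7) passed the filter only through the AAV-Cre obese libraries. Not every gene was high in replicates 1 and 3, since Cd48 was at 4.95, 8.17 and 0 and Evi2a at 27.7, 2.95 and 6.74 in AAV-Cre obese mice, against 0 to 1.75 and 3.99 to 11.1 in AAV-GFP mice. Itgb2, the beta chain of leukocyte integrins, had a signal of 6.23, 3.45 and 6.80 in AAV-GFP mice and 53.8, 18.4 and 56.7 in AAV-Cre obese mice (log2 FC 2.64, SE 0.611, FDR = 0.0563). Plek, Hcls1 and Nckap1l had log2 FCs of 2.30, 2.65 and 2.21 with FDRs of 0.145, 0.155 and 0.168. Summed signal of the 26 was 108 to 129 in AAV-GFP mice, 867, 168 and 769 in AAV-Cre obese mice, and 84.9 to 135 in AAV-Cre nonobese mice. That sum includes the 5 genes that passed the filter only through the AAV-Cre obese libraries. Between the subsets 3 of the 26 were lower in AAV-Cre nonobese mice, against 0.733% of entries. These were Itgb2, Plek and Cd53, with log2 FCs of −2.86, −3.11 and −3.37 (FDR = 0.0245, 0.0177 and 0.0551). In AAV-Cre obese mice Plek was at 83.7, 28.1 and 74.8 and Cd53 at 34.9, 7.94 and 23.0. Their calls between the subsets without AAV-Cre obese replicates 1 and 3 are not given here.

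Markers of particular leukocytes were read in the same libraries. Of 13 microglia genes, 1 was higher in AAV-Cre obese mice, against 0.422% of all entries tested. This was the complement gene C1qa, at 10.7, 9.96 and 13.4 in AAV-GFP mice against 206, 22.5 and 207 (log2 FC 3.03, FDR = 0.0129). Csf1r and Cx3cr1, receptors that microglia share with monocytes, had log2 FCs of 1.20 and 1.17 (FDR = 0.221 and 0.356). P2ry12, a purinergic receptor of resident microglia, was at 20.7, 8.43 and 14.8 in AAV-GFP mice and at 9.0, 18.8 and 7.20 in AAV-Cre obese mice, so the pair of libraries with high Ptprc was not high for P2ry12. Siglech was at 5.62 and 2.56 in that pair, against 7.28 to 19.2 in AAV-GFP mice. Summed signal of the 13 was 182 to 199 in AAV-GFP mice and 756, 247 and 645 in AAV-Cre obese mice.

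Of 8 monocyte and macrophage genes with an entry 6 could be tested and 0 were called (limma). At an unadjusted p under 0.05, 3 were higher, against 5.11% of all entries tested. Summed signal of the 8 was 9.52 to 27.2 in AAV-GFP mice and 237, 29.96 and 327 in AAV-Cre obese mice. That sum includes Ly6c2 and Itgal, which did not pass the filter on low values and were not tested. Of the 6 genes tested, 5 had a log2 FC above 0. Lyz2 had a log2 FC of 3.40 (FDR = 0.185). Mrc1 was at 20.5, 17.9 and 11.6 in AAV-Cre obese mice, against 5.98, 0.957 and 2.14 in AAV-GFP mice (log2 FC 2.30, FDR = 0.331). Cd163 was at 0 in all 3 AAV-Cre obese mice. It was at 9.23, 3.26 and 0 in AAV-GFP mice and at 5.60, 7.07 and 0 in AAV-Cre nonobese mice. Ly6c2, a surface antigen of inflammatory monocytes, had a signal of 34.0 and 24.9 in AAV-Cre obese replicates 1 and 3 and was at 0 in every other library. Itgal was at 39.6, 0 and 30.4 in AAV-Cre obese mice. The values of these untested genes are a description only. Of 7 T cell genes, 4 could be tested and 0 were called (limma). Of these, Cd3e, Trbc2 and Cxcr6 passed the filter only through the AAV-Cre obese libraries, so their values are a description, and 0 had an unadjusted p under 0.05 among the rest, which is Cd3d (log2 FC 0.71, FDR = 0.826). Cd3e, a chain of the T cell receptor complex, was at 0, 1.15 and 0 in AAV-GFP mice and 29.0, 0 and 9.99 in AAV-Cre obese mice. Cd3d was at 2.99, 2.49 and 3.30 in AAV-GFP mice and at 4.95, 5.67 and 5.58 in AAV-Cre obese mice. Cd3g, Cd8a and Cd8b1 did not pass the filter and were not tested. Summed signal of the 7 T cell genes was 2.99 to 5.36 in AAV-GFP mice and 116, 12.7 and 89.0 in AAV-Cre obese mice. That sum is a description only, since Cd3d alone of the 7 passed the filter also without the AAV-Cre obese libraries.

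Of 7 B and plasma cell genes, 5 could be tested and 2 were higher, against 0.422% of all entries tested. Pou2af1, not called, passed the filter only through the AAV-Cre obese libraries. Igkc, the constant region of the kappa light chain, was at 1.5, 0 and 0.777 in AAV-GFP mice, 2074, 52.2 and 4033 in AAV-Cre obese mice, and 18.5, 24.9 and 30.5 in AAV-Cre nonobese mice (log2 FC 8.86, FDR = 2.02e-06). Jchain, which joins secreted antibodies, was at 0 in all 3 AAV-GFP mice and at 513, 13.2 and 768 in AAV-Cre obese mice (FDR = 0.000151). Without AAV-Cre obese replicates 1 and 3 the log2 FC of AAV-Cre obese against AAV-GFP mice was 5.02 for Igkc and 3.82 for Jchain. It was 1.62 for Itgb2 and 0.93 for C1qa. The calls of Itgb2 and C1qa were lost without either replicate, that of C1qa also without AAV-GFP replicate 1, and that of Itgb2 without any of the AAV-GFP mice. Of the lymphocyte and granulocyte lists, natural killer genes had 1 entry (Ccl5, log2 FC 2.62, FDR = 0.400) and neutrophil genes 2 (Cxcr2 and Csf3r, log2 FC −0.74 and −0.35).

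Red blood cell genes, a measure of blood in the captured tissue, had a summed signal of 19.3 to 40.1 in AAV-GFP mice and of 17.3, 20.9 and 38.6 in AAV-Cre obese mice, and 0 of 5 were called (limma; 0 at an unadjusted p under 0.05). The neuron list had 0 of 10 called (limma), 2 lower at an unadjusted p under 0.05, and a summed signal of 2495 to 2726 in AAV-GFP mice and of 2131, 2835 and 2065 in AAV-Cre obese mice. In the astrocyte list 2 of 8 were higher, against 0.422% of all entries tested. Gfap, which rises in reactive astrocytes, was at 83.0, 60.3 and 10.1 in AAV-GFP mice and 369, 130 and 640 in AAV-Cre obese mice (log2 FC 3.03, FDR = 0.0119), and Aqp4 had a log2 FC of 1.19 (FDR = 0.0559). Both calls were lost without AAV-Cre obese replicate 1 or replicate 3, and that of Aqp4 also without AAV-GFP replicate 1 or 3. Without AAV-Cre obese replicates 1 and 3 together the log2 FC was 1.76 for Gfap and 0.38 for Aqp4. In the oligodendrocyte and endothelial lists 0 of 8 and 0 of 8 were called (limma). At an unadjusted p under 0.05, 5 oligodendrocyte genes were lower and 1 endothelial gene was higher, where 5.11% of all entries tested were higher. The share of all entries lower at that threshold is not given here, so the counts of lower neuron and oligodendrocyte genes are a description. The part of these cell types in the result for the 7 genes was not tested.

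**Figure D4:**
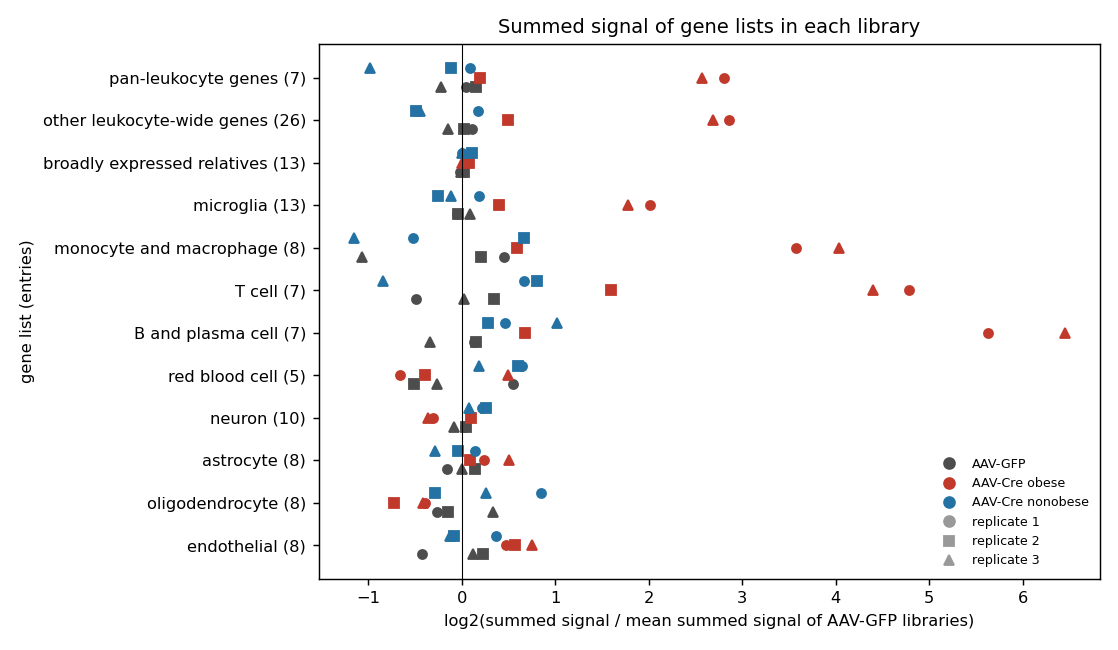
Summed signal of gene lists in each library, as log2 of the ratio to the mean of the 3 AAV-GFP libraries, with a point for each mouse, its colour for the group and its shape for the replicate number. For the 7 pan-leukocyte genes AAV-Cre obese replicates 1 and 3 (467 and 395 in summed signal) stand to the right of all other libraries (33.7 to 76.7), while the broadly expressed relatives stay near 0 in every library. Sums of some other lists include genes that did not pass the filter on low values, or passed it only through the AAV-Cre obese libraries.

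Over the 9 libraries, the 10 entries whose log2 signal was most like the mean of the 7 genes included Ctss (Pearson's r = 0.993), Gimap4 (0.990), H2-Aa (0.988), Cd74 (0.988), H2-Eb1 (0.987), C1qc (0.986), Vim (0.981), H2-Ab1 (0.979) and Rrbp1 (0.974). H2-Aa, H2-Ab1 and H2-Eb1 encode chains of MHC class II and Cd74 its invariant chain, Ctss is a lysosomal protease, and C1qc a subunit of complement C1q. Cd74 had a signal of 2.49, 4.79 and 2.72 in AAV-GFP mice and of 1076, 9.53 and 1186 in AAV-Cre obese mice. Ctss had 67.6, 74.1 and 70.5 against 669, 103 and 803. In both, AAV-Cre obese replicate 2 was far from replicates 1 and 3, and the likeness rests on that pair of libraries. Gimap4, H2-Aa, H2-Eb1 and H2-Ab1 passed the filter on low values only through the AAV-Cre obese libraries. Their place among the most alike entries is therefore a description only.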

How the data were processed

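RNA-Seq libraries (SMARTer Stranded Pico Input kit) of 9 mice, each a separate animal, were sequenced as single-end reads. Per the labels, the authors used CASAVA 1.7, TopHat2 2.0.11, HTSeq, edgeR and limma with GRCm38. What the authors deposited is a signal: the read count of a gene over a library size rescaled by edgeR. Its library sums run from 954378 to 1046542. Strand setting and filter on low genes are not given in the sources used here. The lowest entry total was 50 reads. Dividing by the step between low values returned whole reads for 100% of values in each library (tolerance 0.01 reads), and these served the count tests.

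Symbols were matched for 13446 of 13586 Ensembl identifiers, and gene models are GENCODE M21. The main test was limma 3.58.1 in R 4.3.3 on log2(signal + 1), fitted to 3 groups (2 for all AAV-Cre) and using a variance trend. It covered the 13506 entries that reached a signal of 1 in 3 or more libraries, and p was adjusted by Benjamini-Hochberg. A call is an FDR under 0.1. Log2 FCs on this scale understate changes of low genes. Tests of single values were 2-sided exact permutation tests of the difference of means, computed with numpy 2.4.6. The design was written for CPM and was applied to signal. The procedure was tested on simulated data. Alternatives included edgeR 4.0.16 and DESeq2 1.42.0 on recovered reads. Named were the 7 genes, the 10 entries most correlated with them, their relatives, and up to 4 genes per marker list by FDR, or genes a result turned on. Some genes that this rule names are not reported here. The genes, lists and tests were chosen with earlier results of these data known.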

Additional observations from a re-analysis of the deposited data

Results flagged for a closer look

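The difference between the AAV-Cre subsets passed the test of limma for Laptm5, with a log2 FC of −2.64 (nonobese minus obese, FDR = 0.0692), and for Lcp1, with −1.82 (FDR = 0.0721). Both subsets were measured against the same AAV-GFP mice, so this is also the difference between their effects. All 3 nonobese mice were below all 3 obese mice for both genes. Without AAV-Cre obese replicates 1 and 3 the values were −0.61 and −0.66, and neither passed.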

How the results depend on the processing

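In AAV-Cre obese against AAV-GFP mice 2 of 7 genes were called. The count was 1 with a pseudocount of 0.1, 0 without the variance trend, 1 at an FDR threshold of 0.05, and 5 by the edgeR likelihood ratio test and by DESeq2. It ranged from 0 to 6 when a mouse was left out, and was 0 without AAV-Cre obese replicates 1 and 3 together, where the median log2 FC went from 2.01 to 0.068. With that pair left out, the remaining obese mouse is assumed to vary like the other groups. Between the AAV-Cre subsets the count of 2 was 0 with a pseudocount of 0.1, without the variance trend, with only both subsets in the fit and at an FDR threshold of 0.05. It was 5 by the likelihood ratio test and by DESeq2, 0 to 6 when a mouse was left out, and 0 without AAV-Cre obese replicates 1 and 3 together. The median of −2.29 ranged from −3.42 to −1.67 when a mouse was left out and was −0.61 without that pair. The counts of 0 for nonobese against AAV-GFP and for all AAV-Cre against AAV-GFP were 0 under every alternative run. Other than by construction (fewer mice, a stricter threshold), the cause of these shifts was not tested.

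Without AAV-Cre obese replicates 1 and 3, the log2 FC against AAV-GFP turned to −0.28 for Laptm5 and −2.05 for Arhgdib, that of nonobese minus obese to 0.17 for Ptprc and 1.49 for Arhgdib, and that of all AAV-Cre mice to −0.74 for Laptm5 and −0.93 for Arhgdib. With a pseudocount of 0.1, Arhgdib in all AAV-Cre mice turned to −0.39. In obese against AAV-GFP mice none of the 7 genes changed sign when a mouse was left out, with ranges of 1.90 to 3.75 for Ptprc, 3.04 to 5.11 for Ptpn6, 1.71 to 2.59 for Lcp1, 2.29 to 3.66 for Cyba and −0.49 to −0.15 for Coro1a. In other comparisons leaving out a mouse turned the sign of values not called. In nonobese against AAV-GFP mice Cyba ranged from −0.30 to 0.60, Ptprc from −0.31 to 0.71 and Arhgdib from −1.12 to 0.33, and in all AAV-Cre mice Laptm5 ranged from −0.052 to 0.84 and Arhgdib from −0.25 to 0.80.

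Correlations of the deviations of same-numbered mice ran from −0.02 to 0.09 over 9 pairs, below the 0.1 set for pairing. Those of mice with different numbers ran from −0.09 to 0.04. The main test did not pair the mice, and these values do not settle whether the numbers pair them weakly. With the replicate number as a block 2 genes were called in obese against AAV-GFP mice and 3 between the subsets. Over all entries, the block raised the calls in obese against AAV-GFP mice from 75 to 200. Genes of low signal, such as Cyba with 0 to 13 reads in AAV-GFP mice, are limited by counting error.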
